A study of Mus musculus with 2 samples.

Results

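The genes described here are 10 genes of the Serpina family of serpins, a family named for its protease inhibitors, Serpina1a, Serpina1b, Serpina1c, Serpina1d, Serpina1e, Serpina3k, Serpina3m, Serpina3n, Serpina6 and Serpina10, taken by their symbols from the 32285 genes of a droplet single-cell RNA-seq matrix of mouse liver. The matrix joins 2 samples, liver with hepatocyte-specific loss of Cebpa (Cebp_KO) and wild type liver (Cebp_WT), from mice fed HFCFD (40%) for 2 weeks. The study's methods describe mice with floxed Cebpa crossed to a Cre under the albumin promoter, so that cells other than hepatocytes were meant to keep the gene, whereas the labels give only KO and WT and name neither the age nor the number of animals. Cells of the samples differ in the matrix only by a suffix of the barcode, 1 or 2, and no label ties a suffix to a genotype. The suffixes were therefore treated as 2 libraries of unknown genotype, the differences between them below are differences between those libraries, and no p-value was computed because each library is a single sample.

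Most serpins are suicide inhibitors: the target protease cleaves an exposed loop of the inhibitor and is trapped in a covalent complex. Serpina1 encodes alpha-1-antitrypsin, the main plasma inhibitor of neutrophil elastase, and exists in the mouse as several near-identical copies. The Serpina3 genes are the mouse relatives of human antichymotrypsin, Serpina6 encodes the corticosteroid carrier of plasma, which does not inhibit proteases, and Serpina10 encodes the inhibitor that acts with protein Z on factor Xa. Their products are secreted by hepatocytes into blood, and several of them belong to the acute-phase response.

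The members lie on chromosome 12 (GRCm38, GENCODE annotation). Serpina10 (103614786 to 103631444), Serpina6 (103646630 to 103657212), Serpina1b (103728156 to 103830373), Serpina1d (103763594 to 103773592), Serpina1a (103853589 to 103863562), Serpina1c (103894926 to 103904887) and Serpina1e (103946931 to 103958975) are on the minus strand. Serpina3k (104338486 to 104346144), Serpina3m (104338486 to 104394257) and Serpina3n (104406729 to 104414329) follow on the plus strand. The annotated span of Serpina1b contains Serpina1d, and that of Serpina3m contains Serpina3k, in each case on the same strand. Of the 90-base stretches in the last 500 bases of the transcripts, 21.9% of those of Serpina1a, 15.3% of Serpina1c, 7.54% of Serpina1d and 3.65% of Serpina1b also occurred in another gene, including the predicted gene Gm8893. None of the stretches of Serpina1e, Serpina3k, Serpina3m, Serpina3n, Serpina6 and Serpina10 did. The division of counts between Serpina1a, Serpina1b, Serpina1c and Serpina1d is therefore less certain than the sum of the group. The part of the overlapping spans in the counts of Serpina3k and Serpina3m was not tested.

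Upstream sequence was at hand for 6 members (RefSeq, GRCm38.p6). The 250 bases before the annotated start are shown for the most abundant alpha-1-antitrypsin gene, Serpina1c (chr12:103904951-103905200, minus strand), and for Serpina1e (chr12:103956898-103957147, minus strand), whose level differed from cell to cell the most beyond counting error. Capitals mark the 8 bases TTGCTTAA of Serpina1e, a match to the C/EBP motif TTGCNNAA, the 8 bases of Serpina1c aligned with them, and the half-site GTTAAT of the HNF1 motif.
Serpina1c: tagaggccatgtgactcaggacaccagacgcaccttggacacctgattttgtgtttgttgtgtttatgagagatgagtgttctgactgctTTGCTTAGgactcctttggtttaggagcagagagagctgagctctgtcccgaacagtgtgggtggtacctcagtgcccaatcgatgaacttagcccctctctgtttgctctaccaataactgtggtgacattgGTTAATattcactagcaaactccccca
Serpina1e: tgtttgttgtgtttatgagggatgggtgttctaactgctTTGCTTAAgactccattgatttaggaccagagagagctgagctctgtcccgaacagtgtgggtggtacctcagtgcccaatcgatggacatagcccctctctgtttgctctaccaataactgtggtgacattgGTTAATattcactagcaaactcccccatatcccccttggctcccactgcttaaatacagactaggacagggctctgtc

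The C/EBP motif TTGCNNAA, searched on both strands, was found in the windows of Serpina1b, Serpina1d and Serpina1e and in 9.56% of the 32851 mouse promoter windows of the same length. In Serpina1a and Serpina1c the aligned bases differed by A8G, counted from 1 at the first base of the motif in Serpina1e. GTTAAT, searched after the whole HNF1 motif gave no match in the members, was present in the windows of all 5 Serpina1 genes. It was in 6.43% of all windows. The 5 windows are near-identical where they align, so that their matches to either motif are not independent, and enrichment was not tested. The GTTAAT of Serpina1e lay at -78 to -73 from its annotated start, and those of the other 4 genes began between -27 and -16. The windows are therefore shifted against each other, and which annotated starts are the more accurate was not tested. The window of Serpina1e follows the RefSeq start and lies inside the GENCODE span of Serpina1e given above. The window of Serpina1c lies upstream of both annotations of its gene. Where they aligned, the windows were 92.1% to 98.0% identical between pairs of Serpina1 genes. The window of Serpina3n held neither motif.

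The library with suffix 1 held 17313 barcodes and 60048646 UMIs (unique molecular identifiers, each counting a captured transcript molecule), and that with suffix 2 held 15003 barcodes and 52355243 UMIs. A mitochondrial share over 25% was found in 5675 and 8886 barcodes, and 11617 and 6088 cells were kept. Clusters named from fixed markers gave 11095 hepatocyte-like cells, 7351 with suffix 1 and 3744 with suffix 2, of which 514 and 515 held at least 5000 UMIs and are called deep. The deep cells were not alike between libraries: their median UMI count was 27234 with suffix 1 and 13534 with suffix 2, their median mitochondrial share was 17.4% and 15.6%, and 95.5% of them lay in cluster 8 with suffix 1 while 67.4% lay in cluster 12 and 31.7% in cluster 1 with suffix 2. Of the barcode sequences, 81 occurred with both suffixes. Cebpa itself, the targeted gene, was at 1.41 CPM (UMIs of the gene per 1000000 UMIs) in the deep cells with suffix 1 and 110 CPM in those with suffix 2, and no genotype was assigned from it. Intervals in brackets are 95% intervals for counting error only.

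In deep hepatocyte-like cells the 10 genes together supplied 18905 CPM [18832, 18979] with suffix 1 and 25881 CPM [25769, 25994] with suffix 2. The assay counts UMIs from transcript ends, so these levels were not divided by gene length, whose part in them was not tested. Serpina3k and Serpina1c led in both libraries, in opposite order, and Serpina6 was last in both. The levels spanned 25.1 to 7240 CPM with suffix 1, and 57.6 to 8923 CPM with suffix 2.

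**Figure D1:**
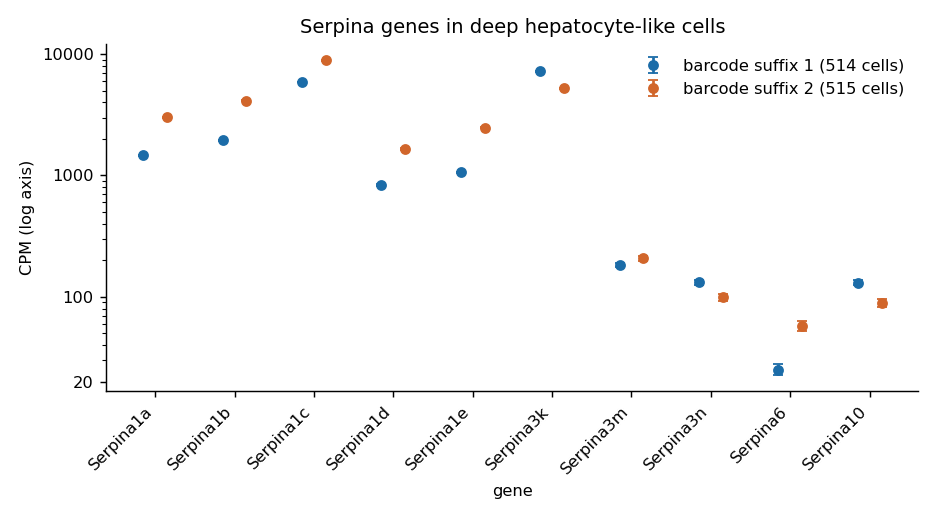
CPM (log axis) of each of the 10 genes in deep hepatocyte-like cells of the library with suffix 1 (blue) and suffix 2 (orange), with bars for the 95% Poisson intervals. Serpina1a to Serpina1e and Serpina6 sit higher with suffix 2, Serpina3k, Serpina3n and Serpina10 sit higher with suffix 1, and Serpina3m lies close together at 183 and 208 CPM.

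The alpha-1-antitrypsin genes were all higher in the library with suffix 2. Serpina1c, the largest of them, was at 5891 CPM [5851, 5933] with suffix 1 and 8923 CPM [8857, 8989] with suffix 2, 1.51-fold [1.499, 1.53] higher. Serpina1b was at 1945 and 4139 CPM, a ratio of 2.13 [2.09, 2.16], and Serpina1a at 1464 and 3014 CPM, a ratio of 2.06 [2.02, 2.10]. These ratios are far outside counting error, but with 1 library each there is no spread between animals to set them against. Serpina1d was at 837 and 1652 CPM, a ratio of 1.97 [1.92, 2.02], just under 2-fold. Serpina1e showed the widest gap of the group, 1058 CPM [1041, 1076] against 2478 CPM [2444, 2513], 2.34-fold [2.29, 2.39]. The make-up of the group shifted with it: Serpina1c was 52.6% of the Serpina1 UMIs with suffix 1 and 44.2% with suffix 2, Serpina1b 17.4% and 20.5%, and Serpina1e 9.45% and 12.3%.

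Of the Serpina3 genes, Serpina3k and Serpina3n were higher with suffix 1, and Serpina3m was slightly higher with suffix 2. Serpina3k, which encodes contrapsin, an inhibitor of trypsin-like proteases and a kallikrein-binding protein, was at 7240 CPM [7194, 7285] with suffix 1 and 5221 CPM [5171, 5271] with suffix 2, 1.39-fold [1.37, 1.40] higher with suffix 1. It made up 95.8% and 94.4% of the UMIs of the 3 Serpina3 members. Serpina3m differed little, with 183 CPM [176, 191] and 208 CPM [198, 218]. Serpina3n, an acute-phase inhibitor of chymotrypsin-like proteases and granzyme B, was at 132 CPM [125, 138] with suffix 1 and 99.1 CPM [92.3, 106] with suffix 2.

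Serpina6 and Serpina10 were the sparsest members beside Serpina3m and Serpina3n. Serpina6, the carrier of glucocorticoids in plasma, was at 25.1 CPM [22.5, 27.9] with suffix 1 and 57.6 CPM [52.5, 63.2] with suffix 2, 2.30-fold [1.99, 2.65] higher. Serpina10 was at 131 CPM [125, 137] and 89.2 CPM [82.8, 96.1], 1.46-fold [1.34, 1.60] higher with suffix 1. Proz, the gene of its cofactor protein Z, was at 225 and 163 CPM, and F10, the gene of their target, at 325 and 350 CPM.

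Of the 10 members, 4 (Serpina1a, Serpina1b, Serpina1e and Serpina6) were at least 2-fold higher with suffix 2, where 2.39% of the 2343 genes that reached 50 CPM with at least 1 suffix were, and 0 were at least 2-fold higher with suffix 1, where 2.99% of those genes were. The median log2 ratio of suffix 1 over suffix 2 was -0.79 over the members and -0.03 over those genes. Serpina6 reached 50 CPM only with suffix 2 and so could enter only from its higher side. Among the genes of at least 50 CPM in both libraries, 3 of 9 members were at least 2-fold higher with suffix 2, against 1.56% of 1925 genes. The count of 4 rests on ratios near 2 and on the cells admitted: it was 1 (Serpina6) without the mitochondrial limit, and 1 (Serpina1e) when each cell was classed by its own markers without clusters. With a mitochondrial limit of 10%, which left 10 deep cells with suffix 1 and 183 with suffix 2, the log2 ratio of Serpina3k went from 0.47 to -0.15 [-0.35, 0.05]. Serpina6 and Serpina10 could not be read there, since with suffix 1 those cells held 2 and 3 UMIs of them. The log2 ratio was -0.65 [-3.72, 1.24] for Serpina6 and -0.32 [-2.62, 1.26] for Serpina10. Serpina3n had 0 UMIs with suffix 1 and 135 with suffix 2. Its log2 ratio had an upper bound of -0.15, against 0.41 in the main setting, so that its side changed among these few cells. The 5 Serpina1 genes stayed lower with suffix 1 in all 13 alternative settings. Per 100 UMIs of Alb, the albumin gene, Serpina1c gave 14.9 and 21.4 UMIs and Serpina3k gave 18.3 and 12.5. The 7 Kupffer cell or macrophage markers ranged from 3.35 to 17.0 CPM in deep cells with suffix 1 and were all higher with suffix 2, at 5.82 to 40.2 CPM, while of the cholangiocyte markers Krt19, Krt7, Epcam and Cldn7 lay at or below 0.506 CPM in both and Sox9 was at 7.29 and 21.2 CPM. Spp1, which led the cholangiocyte-like cluster, was at 518 and 69.5 CPM. The part of the differences in depth, mitochondrial share, cluster and marker level in the ratios was not tested.

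Genes with a bearing on the members were read from lists, beside which 5.38% of the 2343 genes were 2-fold apart in either direction. The plasma serpins of other clades stayed close together, 0 of the 6 that reached 50 CPM being 2-fold apart (median log2 ratio 0.06): Serpinc1, antithrombin, was at 1206 and 1072 CPM. Of the 5 genes for folding and export, which include Lman1, part of the receptor that carries alpha-1-antitrypsin out of the endoplasmic reticulum, 0 were 2-fold apart (median 0.23). Of the 4 acute-phase genes that reached 50 CPM, 1 was 2-fold apart: Orm1, the acid glycoprotein gene, was at 10.8 and 606 CPM. Saa1 was level, at 243 and 240 CPM, while Hp, at 892 and 1688 CPM, was also higher with suffix 2 but less than 2-fold apart. The median log2 ratio of the 4 genes was -0.45, on the side of Orm1. In shallow hepatocyte-like droplets, 2 of the 4 acute-phase genes that reached 50 CPM were at least 2-fold lower with suffix 1 (median -0.70). In B-like and T-like cells, 2 of 3 were (median -1.02). Of the 8 transcription factors and receptors that reached 50 CPM, Cebpa was lower and Onecut1 higher with suffix 1 (Onecut1 166 and 47.4 CPM), whereas Hnf4a (215 and 205 CPM), Cebpb (161 and 149 CPM), the glucocorticoid receptor gene Nr3c1 (81.8 and 65.2 CPM) and the interleukin-6 receptor gene Il6ra (62.5 and 44.6 CPM) were less than 2-fold apart. Of the proteases in the list, Elane and Ctsg, the neutrophil targets of the antitrypsins and antichymotrypsins, had no UMI in the deep cells of either library, and of the 3 genes of that list that reached 50 CPM (F10, Klkb1 and Proz) 0 were 2-fold apart. Of the lobule genes, 2 of 3 pericentral (Glul higher and Rgn lower with suffix 1) and 1 of 6 periportal genes (Hal, lower with suffix 1) were.

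Most hepatocyte-like droplets were shallow, and on average their member UMIs were close in number to those of lymphocytes, which are not a known source of these plasma proteins. A shallow hepatocyte-like droplet held 21.1 UMIs of the members on average with suffix 1 (6837 droplets, median 1035 UMIs) and 34.1 with suffix 2 (3229 droplets, median 1176 UMIs). A B-like or T-like droplet held 23.1 and 27.4, and a deep hepatocyte-like cell 494 and 398. For Serpina1c the shallow droplets held 7.48 UMIs [7.42, 7.55] with suffix 1, below the 7.92 [7.73, 8.10] of the lymphocytes, and 12.2 [12.1, 12.3] with suffix 2, above their 9.55 [9.33, 9.77]. For Serpina3k the values were 5.90 and 6.96 with suffix 1 and 6.03 and 5.56 with suffix 2. These averages mix depths. With suffix 1 the members gave 15.4 UMIs per droplet in the 3147 droplets of 500 to 999 UMIs but 46.0 in the 573 of 2000 to 4999 UMIs, and with suffix 2 they gave 15.7 in 1338 and 70.8 in 740 droplets. The lymphocytes were themselves deeper, with median UMI counts of 4519 and 4140 in T-like and 3725 and 3206 in B-like cells. As a share of all UMIs the members stood at 17546 and 23187 CPM in shallow droplets, against 4762 and 6160 CPM in lymphocytes. RNA free in the suspension was not measured, and its part in the UMIs of either class was not tested. In the averages per droplet with suffix 1, Serpina1d (1.18 and 1.44 UMIs), Serpina1c and Serpina3k lay below the lymphocytes and the intervals of the other 7 members overlapped with theirs. With suffix 2 the 5 Serpina1 genes and Serpina3k stood above the lymphocytes, while Serpina3m (0.215 UMIs per droplet in both), Serpina3n (0.114 and 0.103), Serpina6 (0.0811 and 0.0851) and Serpina10 (0.140 and 0.124) lay within counting error of them.

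**Figure D2:**
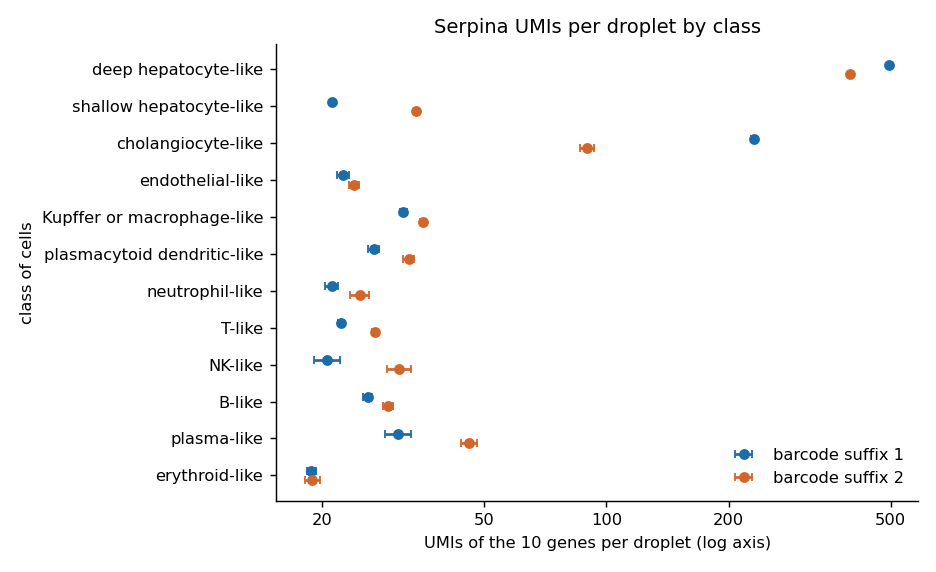
UMIs of the 10 genes per droplet (log axis) in each class of cells, with suffix 1 (blue) and suffix 2 (orange) and 95% Poisson intervals. Deep hepatocyte-like cells stand at 494 and 398, cholangiocyte-like cells at 231 and 89.5, and the immune, endothelial-like and erythroid-like classes between 18.8 and 46.0.

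Hepatocyte-like cells held 77.1% of all member UMIs of the kept cells of both libraries, and 49.6% were in the deep cells alone. By library the hepatocyte-like share was 74.15% with suffix 1 and 81.11% with suffix 2, and clusters left unnamed held 13.78% and 4.21%. Against the B-like and T-like cells of the same library, all 9 members of at least 50 CPM were at least 2-fold higher in the deep cells with suffix 1, where 23.0% of 4040 genes were, and all 10 with suffix 2, where 23.8% of 3912 genes were. Serpina3m, Serpina3n and Serpina10 with suffix 1, and these and Serpina6 with suffix 2, reached 50 CPM only in the deep cells and so could enter only from that side. Of the 6 members of at least 50 CPM in both classes, 6 were at least 2-fold higher in deep cells of either library, against 25.7% of 1441 genes with suffix 1 and 28.7% of 1444 with suffix 2. In the make-up of the Serpina1 UMIs of lymphocytes, Serpina1c was 50.4% with suffix 1 and 44.7% with suffix 2, and Serpina1b was 17.9% and 21.2%, beside the deep-cell shares given above. Some shares lay outside counting error of the deep cells, that of Serpina1c with suffix 1 among them: Serpina1d was 9.14% [8.67, 9.63] in lymphocytes and 7.48% [7.34, 7.61] in deep cells with suffix 1, and Serpina1e 10.3% [9.82, 10.7] and 12.3% [12.1, 12.4] with suffix 2. The lymphocytes also carried the gap between the libraries, with Serpina1a at 408 and 687 CPM and Serpina1b at 578 and 1014 CPM, though 0 of the 6 members that reached 50 CPM there were 2-fold apart (1.12% of 3475 genes were, in either direction). The median log2 ratio of these 6 was -0.62, against 0.04 over those genes. In shallow hepatocyte-like droplets the median over the members was -0.54, and 1 of 10, Serpina6 (25.2 and 55.2 CPM), was at least 2-fold higher with suffix 2, where 1.71% of 2108 genes were. Serpina6 reached 50 CPM there only with suffix 2 and so could enter only from that side, and of the 9 members of at least 50 CPM in both libraries 0 were, against 1.20% of 1826 genes.

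Across the depth of hepatocyte-like cells with suffix 1, Serpina1c and Serpina3k differed in their course. Serpina3k was at 4841 CPM [4730, 4953] in the 573 cells of 2000 to 4999 UMIs and at 9106 CPM [8806, 9413] in the 55 cells of 5000 to 9999 UMIs, then at 6954 CPM [6906, 7003] in the 358 cells of 20000 UMIs or more. Serpina1c was at 6333, 6355 and 5920 CPM in the same cells. Serpina3n was at 84.8 CPM [70.7, 101] below 5000 UMIs and at 151 CPM [115, 196] in the next depth class, but with suffix 2 the same classes overlapped, at 67.4 CPM [56.8, 79.3] and 79.4 CPM [64.8, 96.4]. With suffix 2 both genes were higher from 5000 to 9999 UMIs than from 2000 to 4999 UMIs, Serpina3k at 4100 CPM [4015, 4187] and then 5240 CPM [5115, 5366], and Serpina1c at 8995 CPM [8868, 9123] and then 9397 CPM [9230, 9567]. Serpina1c had already been lower in the shallower droplets of that library, at 7200 CPM from 500 to 999 UMIs and 8021 CPM from 1000 to 1999 UMIs, where Serpina3k was at 4276 and 3986 CPM. From 20000 UMIs, Serpina1c was at 8595 CPM and Serpina3k at 5055 CPM. The median mitochondrial share changed at the same depth, from 1.58% to 12.4% in the first library and 3.05% to 9.63% in the second, so that depth and mitochondrial share cannot be told apart here. Comparing all deep with all shallow cells, 0 of the members were 2-fold apart with suffix 1 or suffix 2, where 21.9% of 2472 genes and 10.3% of 2288 genes were, in either direction.

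**Figure D3:**
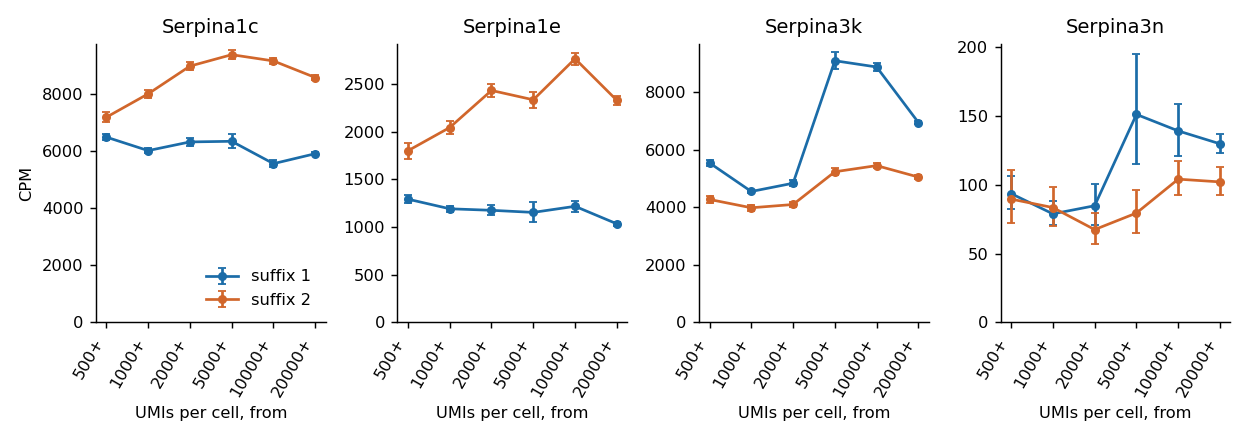
CPM of Serpina1c, Serpina1e, Serpina3k and Serpina3n in hepatocyte-like cells grouped by UMIs per cell (the lower edge of each class is on the x axis), suffix 1 in blue and suffix 2 in orange, with 95% Poisson intervals. With suffix 1, Serpina3k steps from 4841 to 9106 CPM at 5000 UMIs while Serpina1c stays between 5570 and 6502 CPM.

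The members varied among deep cells to very different degrees. The coefficient of variation beyond counting error, which sets aside the scatter that sampling alone gives, lay between 0.288 and 0.393 for Serpina1a to Serpina1d and between 0.298 and 0.362 for Serpina3k. For Serpina1e it was 1.24 with suffix 1 and 0.810 with suffix 2. Serpina6 came close, with 1.05 and 0.795, but it had no UMI in 303 and 265 of the cells and counting error alone would give it a coefficient of 1.42 and 1.24, against 1.76 and 1.47 in all. The middle 80% of cells spanned 67.7 to 2833 CPM of Serpina1e with suffix 1 and 333 to 4814 CPM with suffix 2, whereas Serpina1c spanned 3172 to 8866 CPM and 5354 to 13462 CPM. No UMI of Serpina1e was found in 16 of 514 and 4 of 515 cells, while every deep cell had Serpina1a, Serpina1b, Serpina1c and Serpina3k. Thinned to 1000 UMIs a cell, 47.1% and 74.2% of deep cells kept a UMI of Serpina1e, against 27.1% and 31.0% of T-like cells, 37.6% and 38.9% of B-like cells and 65.2% and 82.65% of the shallow hepatocyte-like droplets with at least 1000 UMIs. Serpina1e was above 1600 CPM in part of the cells and below 400 CPM in others within each library, and the cells were spread over the whole range with no gap.

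**Figure D4:**
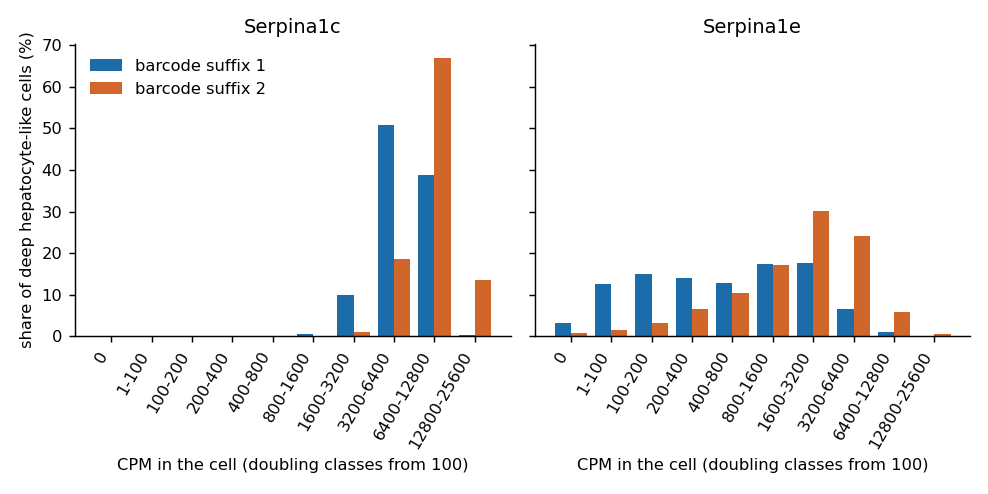
Share of deep hepatocyte-like cells (%) by CPM in the cell, for Serpina1c and Serpina1e, suffix 1 in blue and suffix 2 in orange. Serpina1c lies at 800 CPM or more in every cell, whereas Serpina1e is spread from 0 to over 6400 CPM, with 17.7% of cells with suffix 1 and 30.1% with suffix 2 between 1600 and 3200 CPM.

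Cell by cell, the other Serpina1 genes varied together. Across the 514 and 515 deep cells, which share library, depth and the scaling to all UMIs, Pearson's r of the log levels was 0.66 and 0.75 for Serpina1a with Serpina1b, 0.70 and 0.74 for Serpina1a with Serpina1c and 0.68 and 0.77 for Serpina1b with Serpina1c. Some of these transcripts share stretches near their ends, as given above. Serpina1d joined them at 0.45 to 0.58. Serpina1e followed less closely, with r of 0.10 to 0.42 with the other 4, although its window upstream is 95.5% to 98.0% identical to theirs where aligned. Serpina3k went with Serpina3m (0.30 and 0.37) and Serpina3n (0.29 and 0.25) and also with Serpina1d (0.35 and 0.45), but less with Serpina1a and Serpina1b (0.01 to 0.15). Serpina6 and Serpina10 stayed between -0.07 and 0.25 with every other member.

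Of the 1925 genes of at least 50 CPM in both libraries, those outside the family that were most alike over deep cells also differed by member. For Serpina1a, Serpina1b and Serpina1c the nearest was Apoe, the apolipoprotein E gene, with a mean r of 0.55, 0.63 and 0.62, followed by Hpx, the haemopexin gene (0.45, 0.52 and 0.53). Serpina1d was nearest to Hpx (0.48) and Alb (0.47). Serpina1e was nearest to the major urinary protein genes Mup3 (0.33) and Mup21 (0.26), which encode pheromone carriers made by hepatocytes. Serpina3k was nearest to Cyp2f2, a cytochrome P450 of periportal hepatocytes, and to the fibrinogen gene Fga (0.60 each), and then to Cps1 of the urea cycle (0.56). Serpina3m was nearest to 3 mitochondrial transcripts, mt-Nd4 and mt-Nd1 (0.27 each) and mt-Co1 (0.26). Serpina3n was nearest to P4hb, a protein disulfide isomerase (0.31), with mt-Co1 (0.27) also among its nearest 3, and the part of the mitochondrial share of a cell in these values was not tested. Serpina10 was nearest to the complement gene C3 (0.25). For Serpina6 the highest mean r was 0.16, too low to read.

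The position of hepatocytes along the lobule, between portal triad and central vein, was read from a score of pericentral minus periportal genes. Between the 171 deep cells with the highest score and the 171 with the lowest, Rgn, a pericentral gene that is part of the score, differed 9.03-fold with suffix 1 and 10.2-fold with suffix 2. The cells with the highest score are called pericentral below, within a deep class that was low in pericentral genes: between deep and shallow cells those that reached 50 CPM had a median log2 ratio of -3.58 with suffix 1 and -1.95 with suffix 2, and the periportal genes 0.65 and 0.51. The groups also differed in depth, with median UMI counts of 25253 and 28986 with suffix 1 and 9675 and 16935 with suffix 2 in the pericentral and periportal cells, and its part was not tested. The members, which were not part of the score, had ratios of 0.717 to 1.22. Serpina1d was lower in the pericentral cells of both libraries, at 742 against 902 CPM and 1414 against 1786 CPM, and Serpina3k was at 7050 against 7441 CPM and 4401 against 5647 CPM. Alb fell in the same direction, with ratios of 0.821 and 0.648. Serpina3n had a ratio over 1 in a single library, at 146 against 120 CPM with suffix 1 (ratio 1.22 [1.08, 1.37]) but 90.1 against 104 CPM with suffix 2 (0.869 [0.721, 1.04]). Cell by cell, its level had an r with the score of -0.11 and -0.13, so that with suffix 1 the summed counts and the correlation differed in direction.

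With suffix 1, Serpina6 stood higher in the cholangiocyte-like cluster than in deep hepatocyte-like cells, through 6 of 72 cells, and with suffix 2 it did not. In the cholangiocyte-like cluster, named from 5 of its 6 markers and led by Spp1, Bicc1 and Pkhd1 with the immunoglobulin gene Ighg2c also among its leading genes, Serpina6 was at 201 CPM [179, 225] in the 72 cells with suffix 1, against 25.1 CPM in deep hepatocyte-like cells of that library and 8.57 CPM in lymphocytes. In the 27 cells with suffix 2 it was at 16.8 CPM [4.59, 43.1], from 4 UMIs. The level with suffix 1 came from few cells: 6 of the 72 held 16 to 114 UMIs each, together 260 of 302, and without the highest cell it was 127 CPM [110, 147]. The remaining 66 cells, low in Serpina6 by this division, were at 31.9 CPM [23.0, 43.1]. These 6 cells, singled out after their values were seen, all had Spp1 (353 to 1469 UMIs each) and Sox9 (2 to 13 UMIs), genes of biliary and progenitor-like epithelium. Both also occurred in deep hepatocyte-like cells of that library, Spp1 in 485 of 514 (518 CPM) and Sox9 in 76 (7.29 CPM). In the 6 cells these genes were at 23826 and 167 CPM. The 6 cells held 0 UMIs of Krt19 and of Krt7, genes found in 31 and 17 of the other 66 cells. Epcam, a further biliary gene, had 10 UMIs in 3 of the 6 cells (53.8 CPM [25.8, 99.0]), against 233 CPM in the other 66 and 0.149 CPM in deep hepatocyte-like cells. Alb was at 24144 CPM in the 6 cells and 23723 CPM in the other 66, in both between the 10738 CPM of lymphocytes and the 39577 CPM of deep hepatocyte-like cells. Of all deep hepatocyte-like cells, 1 in each library held 10 or more Serpina6 UMIs, and the most in any was 13. Serpina10 was at 366 CPM [284, 464] in the 6 cells against 147 CPM [127, 169] in the other 66. Serpina12, a Serpina gene outside the members, went the other way, at 5.38 CPM (1 UMI) against 61.6 CPM. Doublets could not be marked in these data, and whether these droplets held more than a single cell was not tested.

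**Figure D5:**
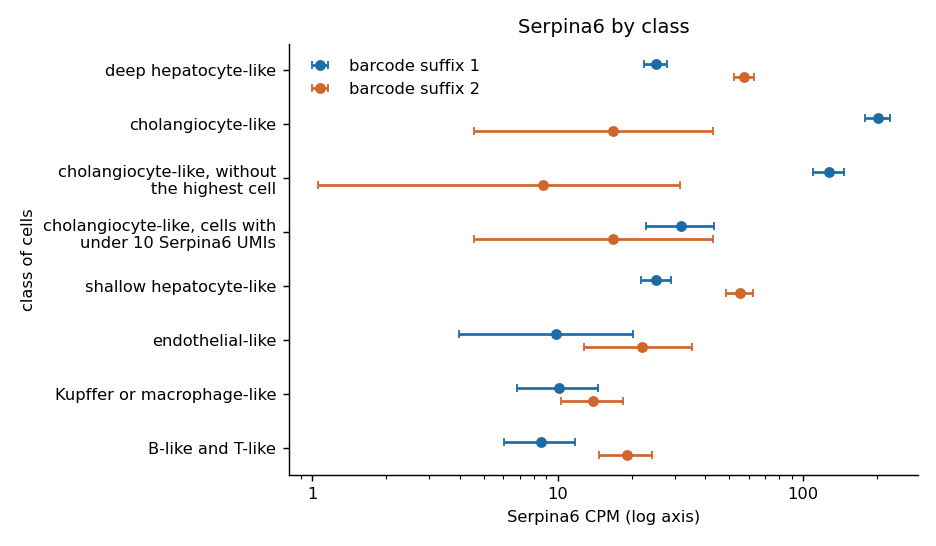
Serpina6 CPM (log axis) by class, suffix 1 in blue and suffix 2 in orange, with 95% Poisson intervals. Cholangiocyte-like cells with suffix 1 stand at 201 CPM, at 127 CPM without the highest cell and at 31.9 CPM for the cells chosen for having under 10 UMIs. Deep hepatocyte-like cells, not divided in that way, stand at 25.1 and 57.6 CPM.

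The other members were not higher in cholangiocyte-like cells with suffix 1 than in deep hepatocyte-like cells, with Serpina1b (2320 CPM against 1945 CPM) and Serpina10 (174 CPM against 131 CPM) the exceptions. Serpina1c was at 3906 CPM and Serpina3k at 1854 CPM there. In the endothelial-like, Kupffer or macrophage-like, neutrophil-like, plasmacytoid dendritic-like, T-like, NK-like, B-like, plasma-like and erythroid-like classes the members together gave 18.8 to 46.0 UMIs per droplet, with no class near the deep hepatocyte-like cells.

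The matrix holds 24 genes with a Serpina symbol, and some of the 14 others were found in other cells. Serpina3g and Serpina3f, intracellular serpins of the mouse Serpina3 group, were highest among these classes in cells other than hepatocytes: Serpina3g was at 127 and 126 CPM in endothelial-like cells, 134 and 156 CPM in NK-like cells and 82.5 and 112 CPM in T-like cells, against 0.670 and 1.77 CPM in deep hepatocyte-like cells. Serpina3f was at 66.4 and 67.4 CPM in endothelial-like and 25.8 and 26.6 CPM in T-like cells, against 0.223 and 0.758 CPM in deep hepatocyte-like cells. Serpina12, the vaspin gene, was at 193 and 490 CPM in deep hepatocyte-like cells, 2.54-fold [2.42, 2.67] higher with suffix 2, a gap on the side of the Serpina1 genes. Serpina11 was at 79.0 and 60.9 CPM, on the side of Serpina3k. Serpina1f, Serpina3a, Serpina3j and Serpina16 had 0 UMIs in deep cells, where levels up to 0.223 CPM with suffix 1 and 0.379 CPM with suffix 2 (3 UMIs of the total) could have gone undetected.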

How the data were processed

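Livers were dissociated by perfusion, purified on Percoll and captured in droplets with a 3′ kit, 1 lane per sample. The authors deposited UMI counts as a filtered pooled matrix made with Cell Ranger 7.1.0; the submitters' notes also name bcl2fastq 2.20.0, STAR 2.7.2a and mm10. Cells with at least 500 UMIs, 200 genes and at most 25% mitochondrial UMIs were kept. After scaling to 10000 UMIs and taking logs, 2000 variable genes (without Serpina genes), 30 components, 15 neighbours and Leiden resolution 1 gave 31 clusters (scanpy 1.11.5, igraph 0.11.9, scipy 1.17.1). A cluster took the name of a marker list by score; a minimum score of 2 for lists other than hepatocyte was set after the clusters were seen, since a cluster led by hepatocyte genes had been called erythroid, and 14.96% of cells stayed unnamed. Scrublet marked 0 cells in both libraries and so had not worked; doublets remain. B-like and T-like cells gave the level in cells not known to make these proteins; free RNA itself was not measured.

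Counts were summed over cells, as CPM with exact Poisson intervals, and ratios with exact conditional intervals; these cover counting error only. With 1 library per suffix, genes at least 2-fold apart were counted in place of a test. The 2-fold rule was checked on simulated counts with counting error alone and with changes well over 2-fold. That check cannot speak to ratios near 2 or to the spread between cells or animals. A cholangiocyte marker is not reported here. The named genes were the 10 members, every other Serpina gene and fixed context lists. The members and lists were chosen with earlier results of these data known. Alternatives changed the mitochondrial limit, depth limit, resolution, classing, scaling, background and doublets. Gene models were GENCODE (GRCm38), with 32158 of the gene identifiers matched. Sequences were RefSeq windows, and the half-site of HNF1 was searched after the whole motif gave no match in the members.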

Additional observations from a re-analysis of the deposited data

Results flagged for a closer look

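Droplets over the mitochondrial limit, which entered the comparisons above only where that limit was lifted as an alternative, carried member UMIs above the level of the lymphocytes. The members together were at 11440 CPM in the 5675 droplets with suffix 1 and 12843 CPM in the 8886 droplets with suffix 2, against 4762 and 6160 CPM in B-like and T-like cells. Per droplet these were 37.3 and 38.2 UMIs, against 23.1 and 27.4. The libraries lay closer in the Serpina1 genes there than in deep cells, with Serpina1c at 3567 and 3980 CPM, Serpina1e at 709 and 813 CPM and Serpina1a at 918 and 1298 CPM, and per 100 Alb UMIs Serpina1c gave 12.5 and 12.7. Serpina6 was at 16.8 and 53.9 CPM and Serpina10 at 66.0 and 59.3 CPM.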

How the results depend on the processing

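No paired analysis was possible because each group is a single sample and no label ties a suffix to a group. The count of members at least 2-fold higher with suffix 2 was 4, and 1 without the mitochondrial limit or with cells classed singly. The members' sum, 18905 CPM with suffix 1 and 25881 with suffix 2, was 15670 and 20506 without the mitochondrial limit, 15948 and 28483 with a limit of 10%, 17755 and 23701 with cells classed singly, 18826 and 25762 from 10000 UMIs, 19285 and 26171 as a mean over cells, 22806 and 30298 of non-mitochondrial UMIs and 18021 and 24095 after subtracting the lymphocyte level. With suffix 2 it was 25717 from 3000 UMIs and 26041 without the highest doublet scores. The share of member UMIs in hepatocyte-like cells, 77.07%, was 81.79% without the mitochondrial limit, 62.04% with 10%, 73.79% and 76.32% at resolutions 0.5 and 2, 76.84% with Serpina genes among the variable genes, 86.09% with cells classed singly and 78.96% without the highest doublet scores. Of 130 log2 ratios of single members, 86 stayed within counting error, 44 moved and 0 reversed a 2-fold call. Serpina6 in cholangiocyte-like cells with suffix 1, 201 CPM, was 127 CPM without its highest cell, an alternative chosen after seeing the data. Since the doublet scores marked no cell, leaving out the highest scores says nothing about doublets. The genotype behind each suffix, the spread between animals and the member UMIs that lymphocytes also hold limit what the ratios show.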
